A study of Mus musculus with 8 samples.

Results

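The transcripts described here are those of 36 DNA replication and S phase genes, a list of symbols grouped by function and not by any threshold on these counts. They encode the proteins that license and open replication origins, copy the DNA, supply nucleotides and histones, drive entry into S phase and guard the replication fork. All 36 were found among the 27679 genes of the count table, and all 36 had enough counts to be among the 13845 genes tested. The lowest count of any of them in any library was 260. The list was chosen with earlier results of these data known, so it is not independent of them.

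The samples were megakaryocytes, the large polyploid cells of the marrow that shed platelets, grown from the bone marrow of wild-type C57BL/6 mice. Lineage-negative marrow cells were kept for 3 days in 1 of 2 cultures, a liquid medium or a 2% methylcellulose hydrogel, the latter a soft matrix with a Young modulus of 30 to 60 Pa that confines the cells. In both cultures the large mature cells were then enriched on a gradient of 2 to 4% bovine serum albumin, and 150 ng of RNA per sample went into polyA-selected RNA-seq. Each culture gave 4 libraries, which the submitters describe as independent biological replicates. The comparison asks how confinement in the matrix alters the transcripts of these cells.

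Replication is prepared in G1 phase, when the origin recognition complex, Cdc6 and Cdt1 load the Mcm2 to Mcm7 helicase onto DNA, and it starts when Cdc45 and the GINS complex switch that helicase on. Cyclin E with its kinase drives this step, and the E2F transcription factors, held back by retinoblastoma family proteins, switch on most of the genes concerned. Megakaryocytes run through repeated rounds of S phase without dividing, a process called endomitosis, so S phase genes are at work in cells that become polyploid.

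Hydrogel libraries held 27012172 to 37059314 counts and liquid libraries 28825468 to 49281611. The megakaryocyte label held in every library: the integrin gene Itga2b stood at 5138 to 7384 CPM (a gene's count relative to the library total, scaled between libraries by the TMM method) in liquid and at 3346 to 5077 in hydrogel. Markers of monocytes and macrophages were also present, with 24 genes summing to 1139 to 2462 CPM in liquid and 4231 to 9161 CPM in hydrogel, and 19 of the 24 rose in hydrogel. In this marker list hydrogel 1 (4231 CPM) and liquid 2 (2462 CPM) lay nearest to the other culture. Of the other marker lists, megakaryocyte genes fell in 12 of 18, mast cell and basophil genes in 7 of 8 and dendritic cell genes in 5 of 8 (1 rose). The other lists gave, of the genes tested, erythroid 1 higher and 3 lower of 7, neutrophil 2 and 2 of 10, granulocyte progenitor 1 and 0 of 8, stem and progenitor 2 and 3 of 10, stromal and endothelial 1 and 2 of 5, T and natural killer cell 2 and 0 of 3, and B cell 0 and 1 of 1. Beside these counts, 15.1% of all 13845 tested genes rose and 14.1% fell (edgeR, adjusted p under 0.05). Because of their place in the macrophage list, results are also given without hydrogel 1 and liquid 2. In bulk RNA, fewer cells of a type and less RNA per cell cannot be told apart.

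The promoters of the S phase genes were searched for the letters that E2F proteins are known to bind. RefSeq promoter sequence (build GRCm38.p6) was matched by symbol for 29 of the 36 genes, as 32 windows; Gins1, Gins2, Ccne2, Usp1, Rfc2, Exo1 and Mcm4 had none. The E2F core was searched as the word TTGGCGC, the word TTCCCGC, the word TTCGCGC and the word TTGCCGC on both strands of the 250 bases before the start, and it was present in 16 of 29 genes (55.2%). It was present in 16.2% of the 10019 tested genes with a window and in 9.01% of all 27025 genes with one. The CCAAT box, searched as CCAAT on both strands, was present in 19 of 29 (65.5%) against 40.7% of tested genes and 37.5% of all. The CHR element, a motif of G2 and mitosis genes searched as the word TTTGAA and the word TTCGAA on both strands, was present in 6 of 29 (20.7%) against 14.9% and 19.6%. With only the last 100 bases before the start, the counts were 8, 16 and 2 of 29, against 7.87%, 26.3% and 4.60% of tested genes. These matches describe letters in a window and are no evidence of binding.

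The promoters below are shown because they belong to the S phase gene that rose (Rrm2), to its partner subunit (Rrm1), and to 3 of the 5 members whose windows hold several E2F cores (Mcm6, Pola1 and Dtl; Mcm5 and Hells, with 3 and 2 cores, are not shown). Each line gives the 250 bases before the start, 5′ to 3′ on the gene's strand, and capitals mark the E2F core and the CCAAT box on either strand. Rrm2 lies at chr12:24708004-24708253 (plus strand), Rrm1 at chr7:102441445-102441694 (plus), Mcm6 at chr1:128359706-128359955 (minus), Pola1 at chrX:93632156-93632405 (minus) and Dtl at chr1:191575545-191575794 (minus).
Rrm2: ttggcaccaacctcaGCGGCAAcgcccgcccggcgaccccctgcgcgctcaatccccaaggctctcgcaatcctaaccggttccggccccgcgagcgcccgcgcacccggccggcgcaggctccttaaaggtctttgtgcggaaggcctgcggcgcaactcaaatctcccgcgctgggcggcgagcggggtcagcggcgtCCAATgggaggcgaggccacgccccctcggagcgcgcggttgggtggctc
Rrm1: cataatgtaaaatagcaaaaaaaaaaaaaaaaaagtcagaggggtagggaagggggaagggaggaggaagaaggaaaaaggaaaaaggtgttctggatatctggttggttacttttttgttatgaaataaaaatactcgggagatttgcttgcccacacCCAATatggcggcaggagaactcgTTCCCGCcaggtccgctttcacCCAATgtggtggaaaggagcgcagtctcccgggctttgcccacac
Mcm6: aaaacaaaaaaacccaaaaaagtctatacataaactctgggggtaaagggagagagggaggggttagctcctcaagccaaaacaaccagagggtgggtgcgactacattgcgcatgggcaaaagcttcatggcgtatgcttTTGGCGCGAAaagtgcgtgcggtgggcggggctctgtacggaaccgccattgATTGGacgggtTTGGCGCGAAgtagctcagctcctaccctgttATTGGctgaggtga
Pola1: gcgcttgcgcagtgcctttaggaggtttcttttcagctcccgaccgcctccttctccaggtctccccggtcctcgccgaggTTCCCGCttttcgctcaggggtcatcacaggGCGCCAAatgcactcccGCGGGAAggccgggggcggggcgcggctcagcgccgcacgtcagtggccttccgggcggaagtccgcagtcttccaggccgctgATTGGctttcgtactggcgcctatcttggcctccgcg
Dtl: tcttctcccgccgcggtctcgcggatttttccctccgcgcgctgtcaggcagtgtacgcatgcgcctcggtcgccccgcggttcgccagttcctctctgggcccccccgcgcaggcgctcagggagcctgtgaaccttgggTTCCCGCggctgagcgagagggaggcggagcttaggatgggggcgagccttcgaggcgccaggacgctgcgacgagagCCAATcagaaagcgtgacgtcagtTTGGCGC
In Rrm2 the only E2F core ended 229 bases before the start and the CCAAT box lay nearer, whereas in Rrm1 a core ended 61 bases before the start, between CCAAT boxes. Mcm6 held 4 cores in overlapping pairs of opposite strand (each run TTGGCGCGAA), and Pola1 held 3, at 163, 132 and 115 bases. Dtl held 2 cores, 1 of them ending at the start itself. The bases after the start were found in an annotated transcript for 29 of the 32 windows, but not for the Mcm6 window shown.

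Between the cultures, few of the S phase genes passed the test. Of the 36, 1 rose in hydrogel (Rrm2) and 1 fell (Rfc2), which is 5.56%, whereas 29.3% of all 13845 tested genes passed (edgeR, quasi-likelihood; Benjamini-Hochberg adjusted p under 0.05), 15.1% higher and 14.1% lower. The median log2 change of the 36 was 0.028 (hydrogel minus liquid), with 21 above 0 and 15 below, beside −0.012 over all genes. Only Rrm2 had all hydrogel libraries above all liquid ones, against 14.6% of all genes, and 0 lay wholly below, against 13.8%. Before adjustment, 4 of the 36 (Rrm2, Rfc2, Clspn and E2f1) had a p under 0.05, which is 11.1% against 41.2% of all genes.

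In the main fit, these small differences were measured closely enough to bound them. The 95% interval of the change lay within 1.5-fold in either direction for 31 of the 36 genes (86.1%), compared with 50.5% of all genes, and within 2-fold for 36 of 36, compared with 71.6%. Cdt1, Rrm2, Cdca7, Clspn and Dtl had intervals reaching past 1.5-fold. None of the 36 changed by 1.5-fold or more in the fit, while 22.5% of all genes did. The median standard error (SE) of the log2 change was 0.12 for the S phase genes and 0.13 for all genes. These intervals do not cover the choice of libraries or covariates. With the macrophage marker score as a covariate, 34 of the 36 changes were below 0.

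**Figure D1:**
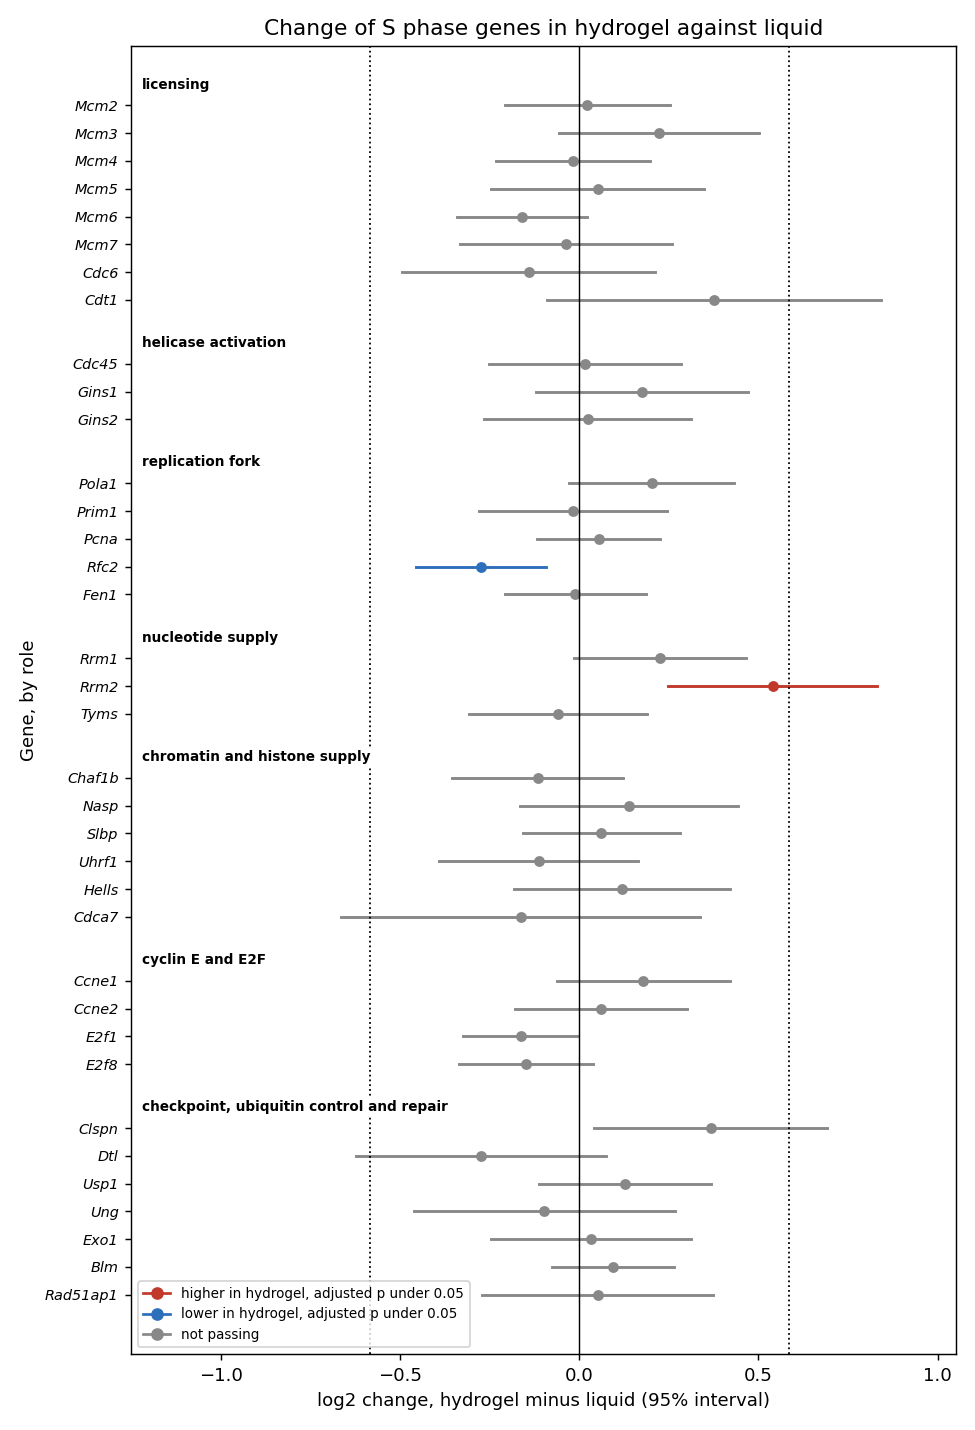
Log2 change (hydrogel minus liquid) of each of the 36 S phase genes, grouped by role, as a point with its 95% interval; dotted lines mark 1.5-fold in each direction. Rrm2 is the one gene coloured as higher and Rfc2 the one coloured as lower, and the other 34 did not pass.

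The groups by role hold 3 to 8 genes, too few for the count of any 1 group to be set against the 29.3% of all genes that passed. Among the licensing genes, 0 of 8 passed, and their median log2 change was 0.0033. Mcm2, a subunit of the helicase ring, stood at 169.5, 177, 131 and 135 CPM in liquid 1 to 4 and at 151, 160.0, 147 and 165 CPM in hydrogel 1 to 4. The hydrogel values all fell inside the liquid range, and the log2 change was 0.023 ± 0.10 (SE; adjusted p 0.891 by edgeR). Mcm6, another ring subunit, was the highest of the list per kilobase of annotated exon. It had 301, 287, 247 and 281 CPM in liquid and 253, 259, 226 and 261 CPM in hydrogel. Its groups overlapped and its log2 change of −0.16 ± 0.081 did not pass (adjusted p 0.166 by edgeR). Mcm3, Mcm4, Mcm5 and Mcm7, the remaining subunits, had log2 changes of 0.22, −0.0165, 0.052 and −0.036.

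The helicase loaders varied between the liquid libraries. Cdc6, which recruits the helicase to origins, had 19.5, 17.9, 11.9 and 13.5 CPM in liquid 1 to 4 and 13.8, 14.2, 12.8 and 16.0 CPM in hydrogel 1 to 4. Its log2 change was −0.14 ± 0.16 (adjusted p 0.538 by edgeR). Cdt1, the loader that is destroyed once S phase begins, had 28.5, 30.0, 15.8 and 16.8 CPM in liquid, so that liquid 1 and 2 lay with the hydrogel libraries (24.7, 31.2, 32.2 and 29.9 CPM) and liquid 3 and 4 far below them. Its log2 change of 0.38 ± 0.21 did not pass (adjusted p 0.205), and without hydrogel 1 and liquid 2 it was 0.63 and did (adjusted p 0.0149). Those libraries held the lowest hydrogel and the highest liquid value of Cdt1, so leaving them out widens the difference by itself.

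The genes that switch the helicase on did not pass either, 0 of 3. Gins1, a GINS subunit and the one of this group with the smallest p, had 10.1, 9.73, 8.78 and 8.43 CPM in liquid and 8.22, 11.8, 10.8 and 11.03 CPM in hydrogel, where hydrogel 1 was the lowest of all 8 libraries. Its log2 change was 0.18 ± 0.13 (adjusted p 0.352 by edgeR). Cdc45, the helicase partner, and Gins2 had log2 changes of 0.016 and 0.024. Exons of Gins2 overlap those of Gse1 on the opposite strand over 67.3% of their length, and the strand setting of the counting is not given in the sources used here.

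Of the replication fork genes, 1 of 5 fell and the others did not pass. Rfc2, a subunit of the clamp loader that places Pcna on DNA, had 133, 122, 119 and 137 CPM in liquid and 99.8, 104, 98.9 and 121 CPM in hydrogel. The groups overlapped through hydrogel 4 alone, and the log2 change was −0.27 ± 0.081 (adjusted p 0.0295 by edgeR), a 1.21-fold lower level. The call was not kept in 5 of the 8 fits that leave out 1 library (hydrogel 1, 2 or 3, liquid 1 or 4; adjusted p 0.0678 to 0.0920), nor with library totals in place of TMM (adjusted p 0.127) or the macrophage score as a covariate (adjusted p 0.369). The log2 change in those fits was −0.24 to −0.27 without 1 library, −0.21 with library totals and −0.33 with the covariate. Exons of Rfc2 overlap those of Lat2 on the opposite strand over 15.1% of their length, and Lat2 moved the other way, by a log2 change of 1.32 (adjusted p 0.000554 by edgeR).

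Pcna, the sliding clamp and a usual marker of S phase, had one of the smaller standard errors of the list. It had 83.5, 86.6, 69.5 and 79.8 CPM in liquid and 77.4, 85.8, 83.4 and 85.0 CPM in hydrogel, and the groups overlapped. Its log2 change was 0.054 ± 0.077, with a 95% interval of −0.12 to 0.23. Pola1, the catalytic subunit of the polymerase that starts each new strand, had a log2 change of 0.20 ± 0.10 (adjusted p 0.168 by edgeR). It passed without liquid 2, its highest liquid library (0.29, adjusted p 0.0267). Its primase partner Prim1 and the flap nuclease Fen1 had log2 changes of −0.017 and −0.0105.

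Nucleotide supply held the one gene that rose. Rrm2, the small and cell-cycle-regulated subunit of ribonucleotide reductase, which makes deoxyribonucleotides from ribonucleotides, had 40.2, 47.3, 29.8 and 33.4 CPM in liquid 1 to 4 and 50.3, 57.1, 53.6 and 57.9 CPM in hydrogel 1 to 4. All hydrogel libraries lay above all liquid libraries, with liquid 2 the nearest to them. The level rose 1.45-fold, from 37.7 ± 7.71 to 54.7 ± 3.49 CPM (SD, n = 4 each), a log2 change of 0.54 ± 0.13 (SE; adjusted p 0.0125 by edgeR's quasi-likelihood test). Leaving out each library in turn kept the call (adjusted p at most 0.0422), and without hydrogel 1 and liquid 2 the log2 change was 0.72. Those libraries held the lowest hydrogel and the highest liquid value of Rrm2, so leaving them out widens the difference by itself.

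The macrophage marker score, like Rrm2, was higher in every hydrogel library than in the liquid ones. With that score as a covariate, the log2 change of Rrm2 was −0.0067 (adjusted p 0.992 by edgeR). The score shared 82.6% of its variance with culture, and the part of the macrophage signal in the result was not tested beyond that fit. Rrm1, the large subunit, had 264, 254, 187 and 209 CPM in liquid against 260.3, 276, 256 and 275 CPM in hydrogel, and its log2 change of 0.22 ± 0.11 did not pass (adjusted p 0.145). Tyms, which makes thymidylate, had a log2 change of −0.058 ± 0.11.

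Of the genes for chromatin and histone supply, 0 of 6 passed. Chaf1b, a subunit of the assembly factor that loads histones behind the fork, had 42.8, 47.1, 33.8 and 34.8 CPM in liquid and the narrow run of 36.5, 36.8, 35.5 and 37.4 CPM in hydrogel. Its log2 change was −0.12 ± 0.11 (adjusted p 0.450 by edgeR). Cdca7, which helps the remodeller Hells to open chromatin for maintenance of DNA methylation, had the widest spread within liquid, where its highest library was 2.29-fold its lowest. Cdca7 and Hells had log2 changes of −0.16 ± 0.22 and 0.12 ± 0.14. The histone chaperone Nasp, the histone mRNA binder Slbp and the methylation cofactor Uhrf1 had log2 changes of 0.14, 0.062 and −0.11.

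Of the cyclin E and E2F genes, 0 of 4 passed. Ccne1, which encodes cyclin E1, had 8.89, 8.94, 7.46 and 7.80 CPM in liquid and 8.79, 9.47, 9.49 and 9.67 CPM in hydrogel. Ccne2, for cyclin E2, had 28.9, 26.2, 20.3 and 23.7 CPM in liquid and 24.4, 25.7, 25.8 and 27.4 CPM in hydrogel. Both overlapped between cultures, with log2 changes of 0.18 ± 0.11 and 0.061 ± 0.11. Over 17.4% of their length, exons of Ccne2 overlap those of Ints8 on the opposite strand, and the strand setting of the counting is not given.

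E2f1, an activator that turns on S phase genes, had 51.5, 48.5, 45.7 and 42.3 CPM in liquid and 42.5, 41.5, 41.0 and 42.9 CPM in hydrogel. Liquid 4 lay among the hydrogel libraries and the other three liquid libraries above them. The log2 change of −0.16 ± 0.073 had a p of 0.0478 before adjustment and 0.117 after it in edgeR. E2f8, a repressor that closes the S phase programme, had a log2 change of −0.15 ± 0.084 (adjusted p 0.217). With the macrophage score as a covariate, E2f8 alone of the 36 passed (log2 change −0.57, adjusted p 0.0327).

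Of the checkpoint, ubiquitin control and repair genes, 0 of 7 passed. Clspn encodes claspin, which carries the stalled-fork signal from the kinase ATR to its target kinase. It had 31.7, 34.7, 22.4 and 23.2 CPM in liquid and 36.3, 40.4, 32.2 and 35.3 CPM in hydrogel, with liquid 2 above hydrogel 3 as the only overlap between the ranges. Its log2 change was 0.37 ± 0.15 (adjusted p 0.0854 by edgeR), and it passed without liquid 2 (0.49, adjusted p 0.0172). Dtl, the ubiquitin ligase adaptor that marks Cdt1 for destruction, had a log2 change of −0.27 ± 0.16 (adjusted p 0.220). The deubiquitinase gene Usp1, the uracil remover Ung, the nuclease Exo1 and the helicase Blm had log2 changes of 0.13, −0.097, 0.032 and 0.094. The remaining gene of this group did not pass either.

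**Figure D2:**
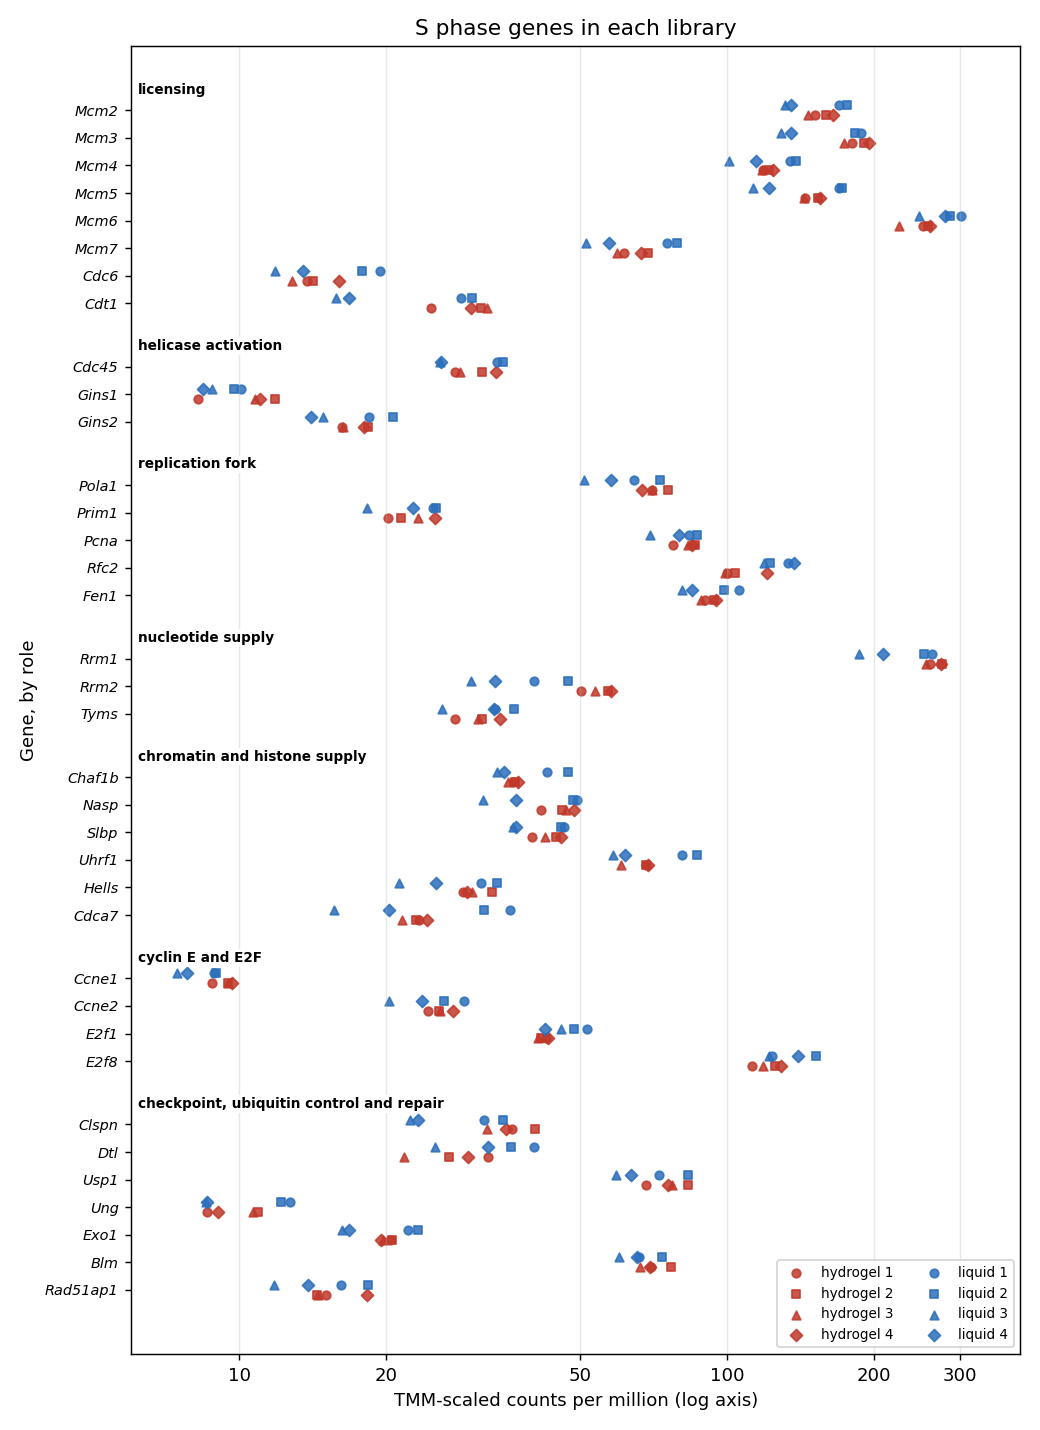
TMM-scaled CPM (log axis) of each S phase gene in each of the 8 libraries, liquid in blue and hydrogel in red, with a marker shape for each replicate number. Hydrogel points lie close together, liquid 3 is the lowest point for 29 of 36 genes, and only Rrm2 shows no overlap between the cultures.

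The S phase genes spread more between liquid libraries than between hydrogel libraries. The SD of log2 CPM was larger in liquid than in hydrogel for 34 of 36 genes (94.4%), compared with 67.3% of all genes. The median SD of the S phase genes was 0.09 in hydrogel and 0.23 in liquid, beside 0.14 and 0.18 over all genes. For 21 of 36 (58.3%, against 17.2% of all genes), every hydrogel library lay inside the range of the liquid ones.

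The liquid libraries were split the same way for most of the genes. Liquid 1 and 2 were both above liquid 3 and 4 in 34 of 36 genes (94.4%, against 21.8% of all genes), with Rfc2 and E2f8 as the exceptions. Liquid 3 was the lowest of all 8 libraries for 29 genes (80.6%, against 17.1%), and liquid 2 or liquid 1 was the highest for 15 and 10. This order was noticed in the values and was not tested. Thinning every library to the smallest total left the order in 34 genes, with liquid 3 lowest in 27. Thinning keeps each gene's expected share of a library, so it cannot separate this order from library size. Liquid 1 and 2 held 32093811 and 28825468 counts, and liquid 3 and 4 held 49281611 and 39165103. The part of library size in the order was not tested.

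Summed over the 36 genes, the liquid libraries held 2659, 2704, 2027 and 2236 CPM and the hydrogel libraries 2372, 2535, 2347 and 2557 CPM. The means were 2407 ± 329 CPM in liquid and 2453 ± 108.5 CPM in hydrogel (SD, n = 4 each), and the hydrogel sums lay within the liquid range. The mean centred log2 CPM of the list was 0.15, 0.18, −0.29 and −0.15 in liquid 1 to 4 and −0.04, 0.07, −0.02 and 0.09 in hydrogel 1 to 4. In the same liquid libraries the macrophage score was −1.60, −0.17, −1.54 and −1.09 and the megakaryocyte score 0.45, −0.17, 0.61 and 0.39. Those scores do not split liquid 1 and 2 from liquid 3 and 4, but the scores of 4 other marker lists do, with liquid 3 lowest as for the S phase genes. In liquid 1 to 4 the granulocyte progenitor score was 0.18, 0.91, −0.83 and −0.31 and the neutrophil score 0.18, 1.36, −0.75 and −0.36. The stem and progenitor score was 0.0084, 0.42, −0.29 and −0.06 and the dendritic cell score 0.56, 1.43, 0.11 and 0.43. The erythroid score split them the other way (0.23, −0.24, 0.35 and 0.24), with liquid 3 highest. The mast cell and basophil, B cell, T and natural killer cell, and stromal and endothelial scores did not split them. The part of these cells in the liquid order was not tested.

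**Figure D3:**
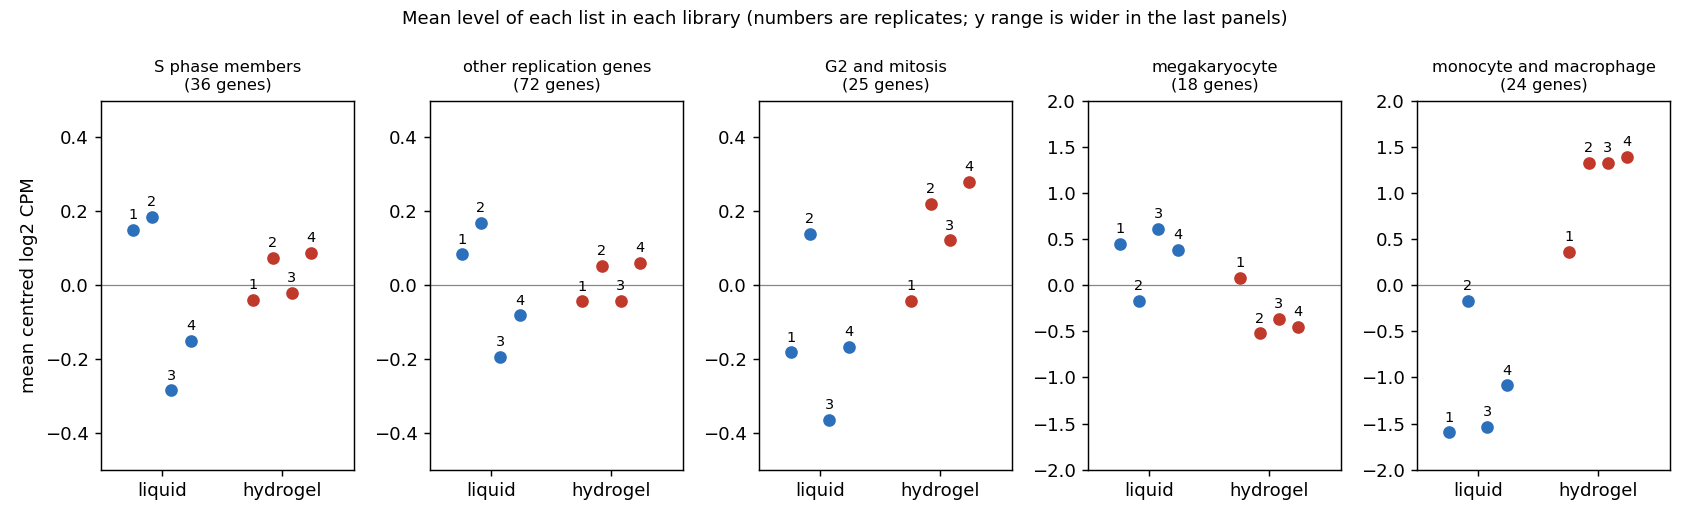
Mean centred log2 CPM of 5 gene lists in each library (points, numbered by replicate), with a wider y range in the marker panels. The S phase score spans −0.29 to 0.18 in liquid and −0.04 to 0.09 in hydrogel, while the hydrogel libraries all have a higher macrophage score than the liquid ones.

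Leaving out hydrogel 1 and liquid 2 raised the number of S phase genes that passed. Without them 6 rose (Cdt1, Pola1, Rrm1, Rrm2, Clspn and Usp1) and 1 fell, with a median log2 change of 0.14, and 40.6% of all genes passed. Hydrogel 1 had the lowest S phase score in hydrogel (−0.04) and liquid 2 the highest in liquid (0.18), so leaving them out raises the changes by itself. Of the remaining liquid libraries, liquid 3 and 4 are those lowest in S phase genes. The 7 that passed were thus a smaller share of the 36 than the share of all genes that passed.

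Few of the other replication genes passed. Of 72 that are not on the list, 1 rose and 4 fell (6.94%, against 29.3% of all genes), with a median log2 change of 0.023. Rad9a, a clamp subunit of the damage checkpoint, rose by 0.39. Rpa3, a subunit of the single-strand binding complex, Rnaseh2c, a subunit of the enzyme that removes RNA from DNA, and the nucleotide enzymes Dut and Dck fell by 0.53, 0.37, 0.35 and 0.29 on the log2 scale. The adjusted p of these 5 genes ran from 0.0101 to 0.0354 in edgeR. Rnaseh2c kept its call with each library left out. Rad9a lost it without hydrogel 2 or 3, Dut without hydrogel 2, 3 or 4 or liquid 1, Rpa3 without hydrogel 2, 3 or 4 or liquid 1 or 4, and Dck without hydrogel 1, 2 or 3 or liquid 1 or 4. The number that rose reached 8 of 72 without liquid 2, where 18% of all genes rose. It reached 15 of 72 when hydrogel 1 was left out as well, where 21.6% of all genes rose. The number that fell reached 7 of 72 without liquid 3, where 11.7% of all genes fell. The E2F core was present in 34.5% of their promoters.

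Some genes of G2 phase and mitosis rose in hydrogel. Of 25, 8 rose (32.0%, against 15.1% of all genes) and 0 fell, the median log2 change was 0.31 and 25 of 25 changes were above 0; their difference from the S phase genes was not tested. Cenpe, a kinetochore motor, rose by 0.61 and Aurka, a spindle kinase, by 0.43. Prc1, Tpx2, Cdc20 and Cenpf, which build or time the spindle, rose by 0.39, 0.32, 0.35 and 0.45. Cenpe, Aurka, Prc1 and Tpx2 kept their calls with each library left out, whereas Cdc20 lost its call without hydrogel 2, hydrogel 4 or liquid 4, and Cenpf did in each omission but those of hydrogel 1 and liquid 2. The count of genes that rose was 4 of 25 without hydrogel 2, hydrogel 4 or liquid 4, where 10.4% to 11.6% of all genes rose. It was 5 without liquid 1 or liquid 3 (12.1% and 12.7% of all genes). The count was 16 without liquid 2 (18% of all genes) and 20 without hydrogel 1 and liquid 2 (21.6%). With the macrophage score in the fit it was 0 (2.71% of all genes).

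**Figure D4:**
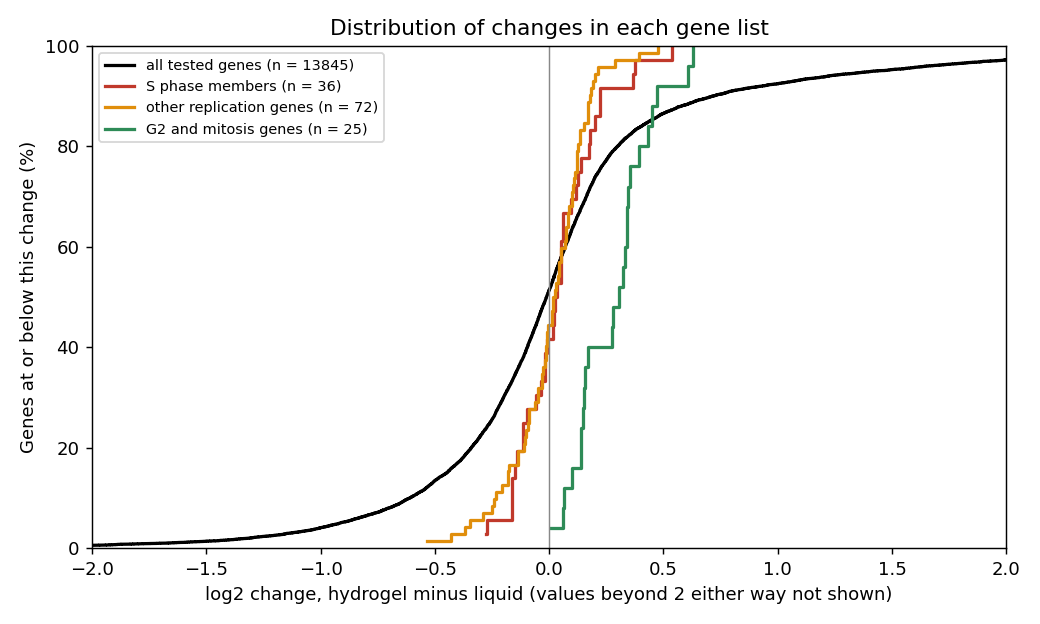
Cumulative share of genes at or below each log2 change (hydrogel minus liquid) for all 13845 tested genes, the 36 S phase genes, 72 other replication genes and 25 G2 and mitosis genes. The S phase curve rises steeply around its median of 0.028, and the G2 and mitosis curve starts above 0.

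Some regulators that act above these genes passed, at a share near that of all genes. Of 26 E2F, pocket protein and cyclin-dependent kinase control genes, 5 rose and 2 fell, a share of 26.9% beside 29.3% of all genes. Cdkn1c, the kinase inhibitor p57, had 1.38, 8.94, 4.14 and 2.78 CPM in liquid and 25.7, 96.9, 101 and 53.0 CPM in hydrogel, with no overlap and a 16.2-fold rise (adjusted p 0.00103 by edgeR). Cdkn1a, the inhibitor p21, had 39.0, 28.4, 54.7 and 40.02 CPM in liquid and 153, 125, 129 and 91.9 CPM in hydrogel, a 3.07-fold rise (adjusted p 0.000568). Both proteins restrain the kinases that start S phase, and both calls held with each library left out in turn.

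E2f2, an activator like E2f1, had 13.1, 22.1, 9.44 and 10.6 CPM in liquid and 25.9, 35.7, 34.3 and 40.8 CPM in hydrogel, a 2.48-fold rise without overlap (adjusted p 0.00410 by edgeR). Mybl2, which cooperates with E2F late in the cycle, and E2f7, a repressor like E2f8, rose by 0.52 and 0.26, but Mybl2 did not pass without hydrogel 2, hydrogel 4 or liquid 3, nor E2f7 without hydrogel 2, 3 or 4 or liquid 3 or 4. E2f7 also missed the threshold with upper-quartile scaling, library totals, no low-count filter, thinning and the macrophage covariate (adjusted p 0.0999, 0.0525, 0.0720, 0.0519 and 0.857 in edgeR). Tfdp2, a partner of E2F on DNA, and Cdkn2d, an inhibitor of the G1 kinases, fell by 0.66 and 0.51 on the log2 scale and passed with each library left out. With the macrophage score as a covariate, Cdkn1a still passed (log2 change 2.703, adjusted p 0.000409), and E2f2 and Cdkn1c did not (−0.038 and 0.92).

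Per kilobase of annotated exon, the levels of the S phase genes in liquid spanned from 59.8 ± 4.93 CPM for Mcm6 to 1.92 ± 0.412 CPM for Ung (SD, n = 4). Mcm3, Fen1, Mcm5, Mcm4 and Pcna followed Mcm6 at 42.3 ± 8.27, 38.2 ± 4.83, 36.1 ± 7.77, 34.1 ± 4.89 and 33.3 ± 3.10 CPM per kilobase. Their liquid ranges overlapped, but the same libraries gave all these values, and differences between genes were not tested. In hydrogel Mcm3, at 46.38 to 52.15, lay above Fen1, Mcm5, Mcm4 and Pcna, whose highest value was 39.3. At the low end, Ccne1, Cdc6, Dtl and Exo1 had 3.11, 3.00, 2.44 and 2.33 CPM per kilobase. The length counts every annotated exon of a gene, which is not the length of 1 transcript, and the order depends on it. Before division by length, Dtl and Exo1 (13.7 and 8.42 kilobases) had 33.5 and 19.6 CPM in liquid, above Ccne1 (2.66 kilobases) at 8.27 CPM. The helicase ring subunits, other than Mcm2 at 22.03 and Mcm7 at 14.9 CPM per kilobase, thus stood among the highest of the list.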

How the data were processed

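PolyA RNA-seq of 4 hydrogel and 4 liquid cultures was taken from 1 table of raw counts per gene deposited by the authors. The tools named in the submitters' processing notes are bcl2fastq, STAR 2.7.10b and HTSeq 0.13.5, and the build is GRCm39; neither the annotation nor the strand setting of the counting is given there. Groups and replicate numbers came from the labels. The table lists 27679 genes and 2 stray lines, which were left out; 0 sample columns were unused. Symbols (26534 matched, 1145 not) and exon lengths came from a GENCODE annotation of another build, which gave no coordinates.

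Genes were filtered with filterByExpr (13845 kept) and given TMM factors. The quasi-likelihood F test of edgeR 4.0.16 (in R 4.3.3) had 1 term, culture, and p-values were adjusted by Benjamini-Hochberg over all tested genes, with 0.05 as the limit. A list's score is the mean over its genes of log2 CPM (prior count 2), centred per gene. In simulated data of the same size (13845 genes), 62, 70 and 68 genes were changed 1.5-fold, 2-fold and 4-fold. The test found 38.7% of the 1.5-fold changes, 64.3% of the 2-fold and 82.4% of the 4-fold ones, and 1.57% of its 127 calls were false. A far larger share of genes passed in the real data (29.3%), so these rates need not hold for them.

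The members and lists were chosen with earlier results of these data known. By the rule for named genes, library values are given for passing members, for the member with the smallest p in each role and for Pcna, Mcm2, Ccne1, Ccne2, E2f1, Cdt1 and Cdc6; of other lists, up to 6 passing genes per direction with the smallest adjusted p. The library values of Rrm1, beyond that rule, and the promoters shown were chosen after values were seen. Alternatives were upper-quartile scaling, size factors of DESeq2, library totals, 2 other low-count filters, DESeq2 (1.42.0), limma-voom (limma 3.58.1), the replicate number as a block, each library left out, hydrogel 1 and liquid 2 left out, and the macrophage score as a covariate; thinning to the smallest library was added after seeing the data. Tables and figures used Python 3.11.15, pandas 2.3.3, numpy 2.4.6 and matplotlib 3.10.9.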

Additional observations from a re-analysis of the deposited data

Results flagged for a closer look

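Single libraries stood apart from the other 3 of their culture in 2 of the 118 groups of 4 values examined, where chance gives about 1 in 20. Uhrf1 stood at 60.58 CPM in hydrogel 3, against 68.23 to 68.85 CPM in the other hydrogel libraries, so that the gap took up 0.93 of the group's range. Rad9a stood at 26.54 CPM in hydrogel 1, against 33.78 to 34.6 CPM in the others, a gap of 0.909 of the range.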

How the results depend on the processing

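Over 19 alternatives, 684 changes of S phase genes were recomputed. Of these, 666 stayed on the same side of the threshold, 7 lost a call (Rfc2 each time), 10 gained one and 1 turned (Rrm2). The 666 include 69 changes that switched sign without a call in either fit, 18 of them with the macrophage score as a covariate. With that covariate, whose variance inflation factor was 5.76, 676 genes passed, 0 S phase genes rose and 1 fell, their median log2 change was −0.26 with 34 of 36 below 0, other replication genes had 0 higher and 0 lower, and G2 and mitosis genes 0 higher and 1 lower. Of the other replication genes that fell, Rpa3 and Dck had log2 changes of −0.50 and −0.60 there without passing, and Rnaseh2c and Dut −0.23 and −0.022. The log2 changes that turned there were −0.0067 for Rrm2, −0.11 for Rad9a, −0.038 for E2f2, 0.18 for Tfdp2, 0.036 for Cdkn2d, −0.12 for Aurka, −0.17 for Bub1, −0.24 for Cenpe, −0.31 for Cenpf and −0.13 for Prc1; the cause was not tested. Leaving out 1 library gave 2700 to 4975 genes passing, 1 to 3 S phase genes higher and 0 to 1 lower, a median of −0.05 to 0.10, other replication genes 0 to 8 higher and 1 to 7 lower, and G2 and mitosis genes 4 to 16 higher. Without hydrogel 1 and liquid 2, 6 S phase, 15 other replication and 20 G2 and mitosis genes were higher. Of all genes, 21.6% were higher there. Other replication genes higher were 2 without a low-count filter, 3 by DESeq2 and 2 by limma-voom; those lower were 9 with upper-quartile scaling and 1 with library totals. With library totals 0 S phase genes fell. Upper-quartile scaling gave 12.7% of all genes higher and 18.0% lower, and totals 16.5% and 10.9%. With 100 bases of promoter, the E2F core was present in 8 and the CHR element in 2 genes. The labels do not say that a replicate number marks a shared source, so the numbers were not taken to pair the samples. Deviations of same-numbered libraries had correlations of 0.22, 0.33, −0.13 and 0.10. Those of other pairs ran from −0.55 to 0.44, a range that holds these values, so the correlations do not settle it. With the replicate number as a block, 2 S phase genes rose (Rrm2, Clspn), 2 fell (Rfc2, Dtl), and 14 G2 and mitosis genes rose. In that fit 30.6% of all genes passed.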
